A study of Homo sapiens with 9 samples.

Results

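WNT ligands, their receptors and co-receptors, the antagonists that hold them in check and the nearest intracellular components of the pathway were followed as 53 named genes. They were found by gene symbol in the FPKM table of GIST-T1, and 53 of 53 were among its 23610 genes. By role there were 12 ligands, 15 receptors and co-receptors, 12 secreted and membrane antagonists and 5 genes of the R-spondin axis. There were also 1 gene of ligand maturation, 4 TCF/LEF transcription factors and 4 genes grouped as intracellular feedback, AXIN1 among them. GIST-T1 is an established human line of gastrointestinal stromal tumour (GIST), a sarcoma of the gut wall related to the interstitial cells of Cajal, which pace gut motility. PolyA RNA was sequenced in 9 libraries, 3 with a Luciferase sgRNA (a guide against a gene that human cells lack, the control), 3 with an ETV1 sgRNA and 3 with a HAND1 sgRNA. ETV1 and HAND1 are transcription factors, and the labels call all 3 treatments knockdowns without giving the Cas9 form, the guide sequences, the time after delivery or whether the cells were 1 clone. Nor do they tell whether a group holds separate cultures, so the p-values reflect only how far these libraries scatter, and that scatter may be technical.

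WNT proteins are secreted, lipid-modified ligands that bind Frizzled receptors together with a co-receptor. With LRP5 or LRP6 as the co-receptor they stop the breakdown of beta-catenin, which then works with TCF/LEF factors on target genes. With ROR1, ROR2 or RYK, ligands such as WNT5A and WNT11 act through routes that do not need beta-catenin, among them planar cell polarity. Secreted frizzled-related proteins (the SFRP genes) and WIF1 bind the ligands, DKK1, DKK2 and DKK4 bind LRP5 and LRP6, and R-spondins with their LGR receptors keep Frizzled proteins at the surface by removing the ligases RNF43 and ZNRF3. In the developing gut, WNT signals from the mesenchyme pattern both the epithelium and the muscle wall.

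The transcript each sgRNA targets was lower in its libraries than in the Luciferase sgRNA libraries. For ETV1 the level was 11.4 ± 0.571 FPKM under ETV1 sgRNA, against 39.7 ± 2.42 FPKM in the Luciferase sgRNA libraries (SD, n = 3), and for HAND1 it was 38.3 ± 2.25 FPKM under HAND1 sgRNA, against 114 ± 1.12 FPKM. Under ETV1 sgRNA the HAND1 transcript was at 132 ± 2.26 FPKM, a difference from Luciferase sgRNA that was not called. The GIST markers KIT, ANO1, CD34, PRKCQ and GPR20 had means from 5.88 (PRKCQ) to 1659 FPKM (CD34) over the 9 libraries, and the 14 blood, endothelial, epithelial, glial and neuronal markers reported here all had means under 1 FPKM, with KRT20 and ELAVL4 at 0 in every library. KIT, PRKCQ and GPR20 were called lower under HAND1 sgRNA than under Luciferase sgRNA (log2 −0.38, −0.75 and −0.84), ANO1 and CD34 differed by 0.04 and 0.07, and the part of these markers in the results below was not tested. Depth relative to Luciferase sgRNA replicate 1 went down to 0.636, and 11283 to 11345 genes a library were at 1 FPKM or more. Luciferase sgRNA replicate 3 stood apart with a summed 538689 FPKM, against 451286 to 479939 in the others, and where a call was lost without it the value is given beside that call. In bulk RNA, fewer cells that transcribe a gene and less RNA per cell cannot be told apart.

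The repertoire of GIST-T1 was uneven, and most of it was low. Of the 53 genes, 34 had a mean of at least 1 FPKM over the 9 libraries and were tested, and 19 were below it. FPKM is per transcript length, so levels can be set side by side between genes on this scale. Only SFRP1 and the co-receptor LRP5 had a mean of at least 50 FPKM, 12 of the 34 tested members reached 10 FPKM, and 15 lay between 1 and 5 FPKM. WNT2, SFRP5 and RSPO3 were at 0 in every library, and 12 of the 19 untested members had a mean under 0.2 FPKM, those 3 included.

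**Figure D1:**
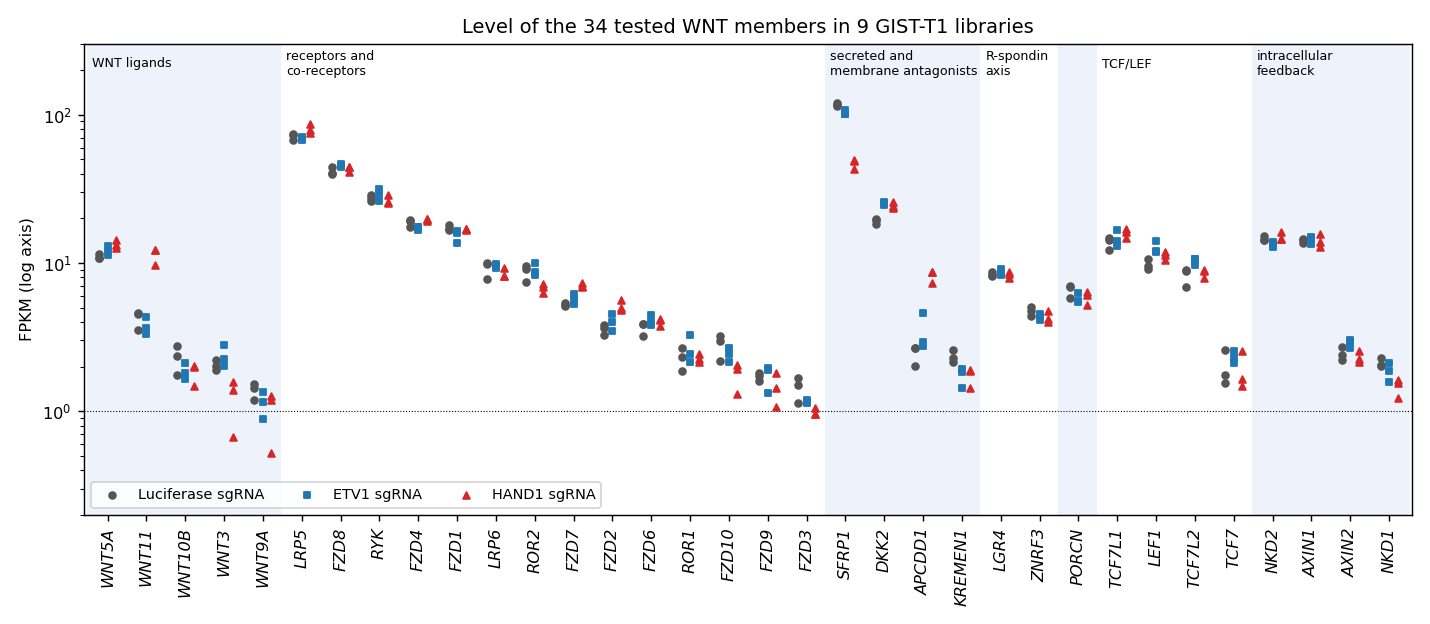
Level of the 34 tested members (FPKM, log axis) in each of the 9 libraries, grouped by role, with circles for Luciferase sgRNA, squares for ETV1 sgRNA, triangles for HAND1 sgRNA and a dotted line at 1 FPKM. SFRP1 and LRP5 are the highest, and WNT11, APCDD1 and SFRP1 are the members in which the triangles stand well away from both other groups.

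With HAND1 sgRNA, the ligand WNT11 and the antagonist APCDD1 rose 2.70-fold and 3.36-fold over Luciferase sgRNA (ratio of mean FPKM), and SFRP1, the most abundant member, fell to 0.403 of its control level. Smaller rises were called for the antagonist DKK2 and the receptors FZD7 and FZD2. With ETV1 sgRNA, DKK2 was the only member called. A gene was called where limma on log2(FPKM + 1), fitted over 11348 genes, gave a Benjamini-Hochberg adjusted p under 0.05, and log2 differences below are on that scale, which understates changes of low genes. For HAND1 sgRNA against Luciferase sgRNA, 6 of 34 tested members were called (17.6%; 5 higher and 1 lower), beside 6.6% of all genes tested (3.67% higher and 2.93% lower). For HAND1 sgRNA against ETV1 sgRNA, 3 of 34 were called (8.82%; 2 higher and 1 lower), beside 4.05% of all genes (2.01% higher and 2.04% lower). For ETV1 sgRNA against Luciferase sgRNA it was 1 of 34 (2.94%, higher), beside 0.203% of all genes (0.141% higher and 0.0617% lower), so that share rests on a single gene. Each pair of these comparisons shares 1 group of libraries. The members were chosen with earlier results of these data known, so their shares describe them and are not a test of the set. Some of the groups whose libraries lay apart without a call are described below, but not all of them. The share of all genes that lie apart in this way was not counted.

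**Figure D2:**
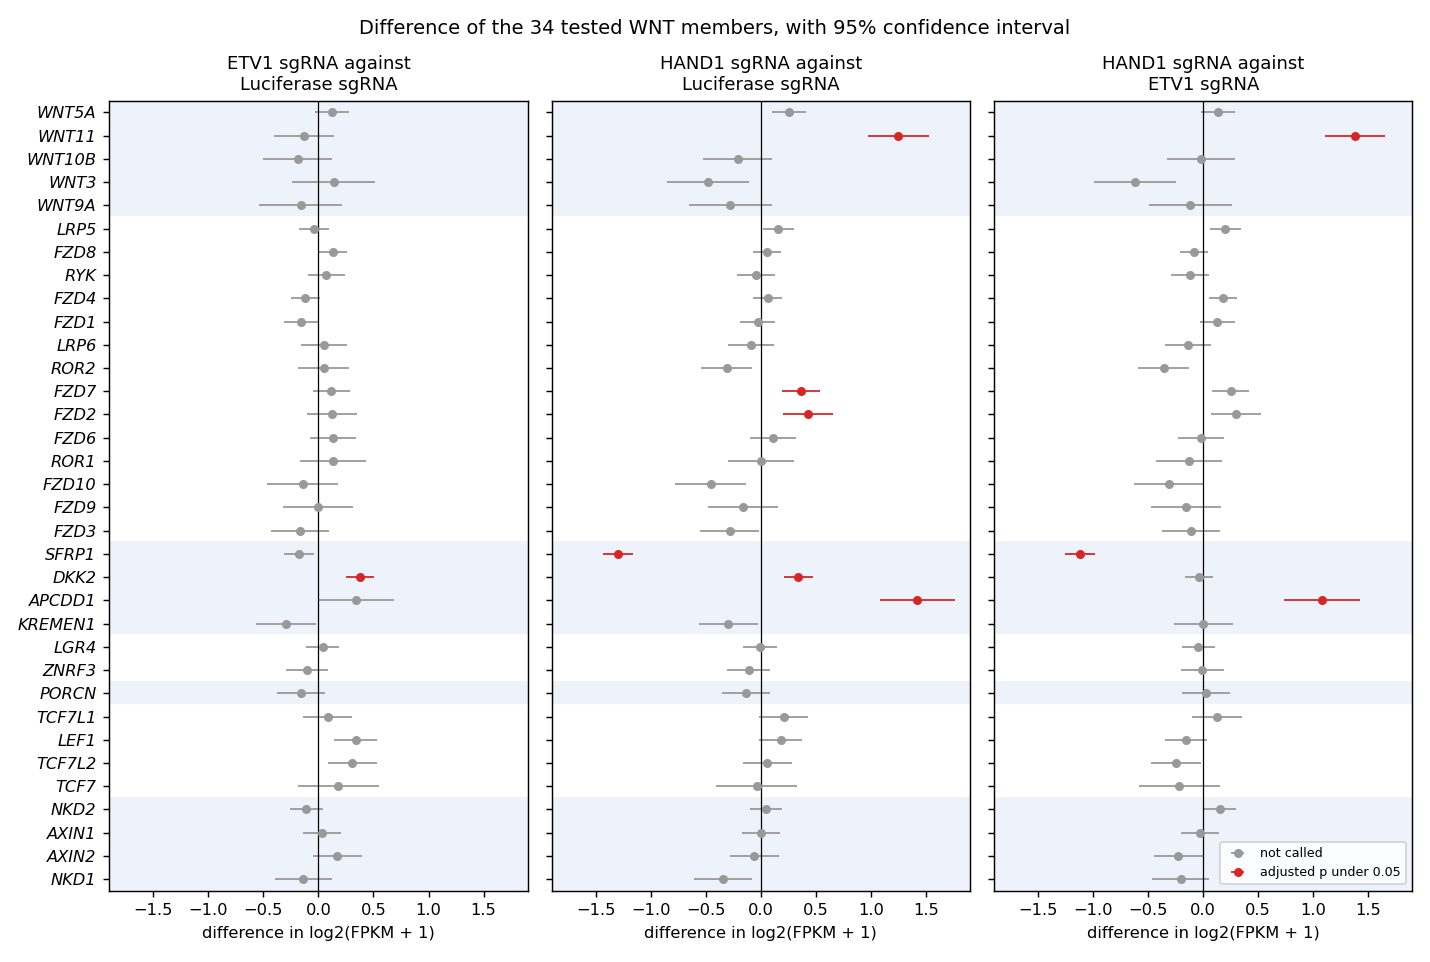
Difference in log2(FPKM + 1) for the 34 tested members in the 3 comparisons, with 95% confidence intervals from limma, members shaded by role and red where the adjusted p was under 0.05. In both comparisons that involve HAND1 sgRNA, WNT11, APCDD1 and SFRP1 lie beyond 1 log2 unit, and every other member lies within it.

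As a whole the members did not move one way. The median log2 difference over the 34 was −0.02 for HAND1 sgRNA against Luciferase sgRNA (−0.01 over all genes tested), 0.04 for ETV1 sgRNA against Luciferase sgRNA (−0.01 over all genes) and −0.04 for HAND1 sgRNA against ETV1 sgRNA (−0.003 over all genes). The median size of the difference, sign set aside, was 0.17, 0.13 and 0.15 for the members and 0.10, 0.07 and 0.09 over all genes. Of the 34, 15 lay between 1 and 5 FPKM, and the part of a low level in these sizes was not tested.

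Of the ligands, 5 of 12 were tested, and WNT11 was the only one called. WNT11 is a ligand best known for beta-catenin-independent signalling and cell movement in the embryo. It was at 4.59, 3.54 and 4.52 FPKM in the Luciferase sgRNA libraries, 3.65, 3.30 and 4.32 FPKM under ETV1 sgRNA, and 12.3, 12.2 and 9.69 FPKM under HAND1 sgRNA. All 3 HAND1 sgRNA libraries lay above the other 6, and the ETV1 sgRNA and Luciferase sgRNA libraries overlapped. The log2 difference was 1.25 (SE 0.124, limma with Benjamini-Hochberg adjusted p = 2.21e-04) for HAND1 sgRNA against Luciferase sgRNA and 1.38 (adjusted p = 1.63e-04) against ETV1 sgRNA, and −0.13 (95% interval −0.41 to 0.14, adjusted p = 0.848) for ETV1 sgRNA against Luciferase sgRNA. An antisense transcript shares 204 exon bases with WNT11 in the reference annotation, and these non-stranded libraries cannot tell the 2 apart, so the value of WNT11 is uncertain to that extent.

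WNT5A, the other ligand of the beta-catenin-independent routes, was the most abundant WNT transcript. Its level was 11.4, 10.8 and 10.9 FPKM under Luciferase sgRNA, 11.9, 12.9 and 11.4 FPKM under ETV1 sgRNA and 12.6, 14.3 and 13.2 FPKM under HAND1 sgRNA. The HAND1 sgRNA libraries all lay above the Luciferase sgRNA libraries, but the difference of 0.25 (95% interval 0.10 to 0.41) was not called in limma (Benjamini-Hochberg adjusted p = 0.061). WNT3, a ligand of the beta-catenin route, was at 2.04 ± 0.167 FPKM under Luciferase sgRNA, 2.36 ± 0.414 under ETV1 sgRNA and 1.21 ± 0.482 under HAND1 sgRNA (SD, n = 3). Its HAND1 sgRNA libraries lay below all others, and neither difference was called (−0.48, adjusted p = 0.128, and −0.62 against ETV1 sgRNA, adjusted p = 0.0766, limma with Benjamini-Hochberg). WNT10B (1.83 to 2.28 FPKM as group means) and WNT9A (0.994 to 1.38 FPKM) overlapped between groups in every comparison.

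Summed over the 12 ligands, WNT transcripts came to 21.3 ± 0.787 FPKM (SD, n = 3) under Luciferase sgRNA, 21.7 ± 0.895 under ETV1 sgRNA and 29.5 ± 2.46 under HAND1 sgRNA. WNT11 made up 16.9% to 21.7% of that sum under Luciferase sgRNA, 14.6% to 20.1% under ETV1 sgRNA and 35.7% to 41.7% under HAND1 sgRNA. WNT5A made up 51.8%, 55.8% and 45.3% on average in the same order. WNT5A and WNT11 together thus took most of the ligand RNA in every library, and WNT5A stayed ahead of WNT11 in all 9. These sums were not tested.

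The 7 untested ligands were WNT2, WNT2B, WNT4, WNT5B, WNT6, WNT7B and WNT16. WNT5B, a close relative of WNT5A, was at 0.0478 to 0.328 FPKM under Luciferase sgRNA, 0 to 0.234 FPKM under ETV1 sgRNA and 0.423 to 0.640 FPKM under HAND1 sgRNA, so that its HAND1 sgRNA libraries lay above the rest at a level too low for the test. The other 6 did not separate the groups, and the highest value among them was 0.341 FPKM, of WNT2B. That value is uncertain, since WNT2B shares 2661 exon bases on the other strand with ST7L, at 3.51 FPKM.

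The promoters of WNT5A are shown because it is the most abundant ligand transcript and because HAND1, a basic helix-loop-helix factor, belongs to a class that binds E-boxes (CANNTG). The 250 bases before 2 start sites of WNT5A are given from RefSeq (GRCh38.p14, chromosome 3, minus strand), 5′ to 3′, with E-boxes in capitals.
WNT5A, chr3:55487307-55487556: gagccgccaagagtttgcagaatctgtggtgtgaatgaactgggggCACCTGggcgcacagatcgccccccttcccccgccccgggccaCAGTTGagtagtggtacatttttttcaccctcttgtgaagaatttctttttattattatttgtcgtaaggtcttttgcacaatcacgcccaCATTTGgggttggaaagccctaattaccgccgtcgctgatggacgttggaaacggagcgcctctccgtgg
WNT5A, chr3:55481399-55481648: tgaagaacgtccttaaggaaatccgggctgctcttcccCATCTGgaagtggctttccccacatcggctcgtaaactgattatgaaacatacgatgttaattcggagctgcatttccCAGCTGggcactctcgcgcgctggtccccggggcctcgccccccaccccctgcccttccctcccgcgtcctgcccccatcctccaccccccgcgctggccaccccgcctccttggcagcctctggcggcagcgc
The first stretch holds 3 E-boxes and the second 2, of which 1 is CATCTG. In windows of 300 bases (250 before and 50 after the start, both strands), CANNTG stood in 68.7% of all 35116 promoters of the table and in 23 of the 43 windows of members (53.5%), and CATCTG, a special case of it, in 14.7% and 6.98%. Of the 53 members, 35 had a window in the table, and WNT11, SFRP1, DKK2, FZD2 and FZD7 were among the 18 that did not. The ETS motif CCGGAAG, of the family that ETV1 belongs to, stood in 10.3% of all windows and 4.65% of the member windows (AXIN1 and TCF7). Of the TCF/LEF motifs, CTTTGAT stood in 2.62% of all windows and in 0 of 43 member windows, and CTTTGTT in 5.2% and in 9.3% (WNT3, DKK1, TCF7 and TCF7L2). These are matches of letters, not binding sites.

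Among the 15 receptors and co-receptors, 14 were tested and only FZD7 and FZD2 were called, both higher under HAND1 sgRNA. Both are Frizzled receptors, and their protein sequences belong to the same subgroup as FZD1. FZD7 was at 5.24, 5.11 and 5.40 FPKM under Luciferase sgRNA, 6.22, 5.30 and 5.82 FPKM under ETV1 sgRNA, and 6.99, 7.29 and 6.87 FPKM under HAND1 sgRNA. The HAND1 sgRNA libraries lay above the other 6. The difference from Luciferase sgRNA was 0.37 (SE 0.0761, limma with Benjamini-Hochberg adjusted p = 0.0174), and that from ETV1 sgRNA was 0.25 and not called (adjusted p = 0.118). Without a library the call of FZD7 was lost in 5 cases: Luciferase sgRNA replicate 1 or 2 (adjusted p = 0.0511 and 0.0670) and HAND1 sgRNA replicate 1, 2 or 3 (0.0575, 0.0707 and 0.0527).

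FZD2 was at 3.25, 3.80 and 3.64 FPKM under Luciferase sgRNA, 3.99, 3.48 and 4.50 FPKM under ETV1 sgRNA, and 5.63, 4.95 and 4.82 FPKM under HAND1 sgRNA. Here too the HAND1 sgRNA libraries lay above the other 6, and the other 2 groups overlapped. The difference from Luciferase sgRNA was 0.43 (SE 0.102, limma with Benjamini-Hochberg adjusted p = 0.0336), and that from ETV1 sgRNA, 0.30, was not called (adjusted p = 0.169). The call of FZD2 was lost without Luciferase sgRNA replicate 1, 2 or 3 (adjusted p = 0.104, 0.0645 and 0.0614), ETV1 sgRNA replicate 1 (0.0534) or HAND1 sgRNA replicate 1, 2 or 3 (0.123, 0.0808 and 0.0711), and with no filter (0.0695) or quantile normalization (0.05004). FZD1, of the same subgroup, was at 17.2 ± 0.644 FPKM under Luciferase sgRNA and 16.9 ± 0.152 FPKM under HAND1 sgRNA (difference −0.03, 95% interval −0.19 to 0.13).

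FZD8 led the Frizzled receptors, at 41.5 ± 2.42, 45.6 ± 0.903 and 43.1 ± 1.91 FPKM with Luciferase, ETV1 and HAND1 sgRNA (SD, n = 3), followed by FZD4 at 18.8, 17.2 and 19.6 FPKM and FZD1. Summed, the Frizzled members stood at 96.5 ± 2.17, 98.0 ± 0.800 and 101 ± 2.36 FPKM, and FZD8 took 43.0%, 46.6% and 42.9% of that on average. FZD10 had means of 2.78 FPKM under Luciferase sgRNA and 1.76 FPKM under HAND1 sgRNA, with the HAND1 sgRNA libraries below all others, and was not called (−0.45, limma with Benjamini-Hochberg adjusted p = 0.101). FZD3, FZD6 and FZD9 had group means between 0.993 and 4.09 FPKM and were not called, FZD3 with a group mean under 1 FPKM in HAND1 sgRNA. FZD5 was the untested receptor, at 0.484 to 0.742 FPKM.

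Of the co-receptors, LRP5 was at 73.3, 73.8 and 68.0 FPKM under Luciferase sgRNA, 71.2, 69.7 and 67.7 FPKM under ETV1 sgRNA and 87.0, 75.4 and 78.5 FPKM under HAND1 sgRNA. Its HAND1 sgRNA libraries lay above the others, by 0.16 over Luciferase sgRNA (95% interval 0.02 to 0.30), which was not called in limma (Benjamini-Hochberg adjusted p = 0.172). LRP6, the related co-receptor, was at 8.56 to 9.50 FPKM as group means, so that LRP5 RNA was the more abundant per length in every library. ROR2, a receptor tyrosine kinase for WNT5A, was at 8.70 ± 1.13 FPKM under Luciferase sgRNA, 9.02 ± 0.934 under ETV1 sgRNA and 6.81 ± 0.479 under HAND1 sgRNA. Its HAND1 sgRNA libraries lay below the other 6, and neither difference was called (−0.31, adjusted p = 0.117, and −0.36, adjusted p = 0.0997, limma with Benjamini-Hochberg). ROR1 (2.28 to 2.62 FPKM) and RYK (26.7 to 29.1 FPKM, group means) overlapped between groups.

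Antagonists held the largest rise called and the only fall. SFRP1, a secreted decoy with a Frizzled-like domain, was at 116, 115 and 120 FPKM under Luciferase sgRNA, 101, 107 and 101 FPKM under ETV1 sgRNA and 49.1, 42.9 and 49.3 FPKM under HAND1 sgRNA. The 3 groups did not overlap. SFRP1 fell under HAND1 sgRNA by 1.30 against Luciferase sgRNA (SE 0.0612, limma with Benjamini-Hochberg adjusted p = 1.87e-06) and by 1.12 against ETV1 sgRNA (adjusted p = 4.92e-06). The libraries of ETV1 sgRNA differed from those of Luciferase sgRNA by −0.18 (95% interval −0.32 to −0.04), which was not called (adjusted p = 0.453). The calls of SFRP1, WNT11 and APCDD1 under HAND1 sgRNA, against both other groups, held in each of 19 alternatives in which the gene was tested (18 for APCDD1).

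APCDD1, a membrane glycoprotein that binds WNT ligands and LRP5 and lowers signalling, was at 2.68, 2.01 and 2.65 FPKM under Luciferase sgRNA, 2.92, 2.76 and 4.58 FPKM under ETV1 sgRNA and 8.66, 8.68 and 7.30 FPKM under HAND1 sgRNA. Again the HAND1 sgRNA libraries lay above the other 6, and all ETV1 sgRNA libraries lay above the Luciferase sgRNA libraries, with replicate 3 the highest of them. The difference was 1.42 (SE 0.154, limma with Benjamini-Hochberg adjusted p = 3.91e-04) against Luciferase sgRNA and 1.08 (adjusted p = 0.00298) against ETV1 sgRNA. For ETV1 sgRNA against Luciferase sgRNA it was 0.34 and not called (adjusted p = 0.609). With a pseudocount of 5 FPKM in place of 1, the difference from Luciferase sgRNA was 0.83 for APCDD1 and 0.83 for WNT11, still called.

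The promoter of APCDD1 is shown as that of the member with the largest rise. It is the 250 bases before the RefSeq start on chromosome 18 (GRCh38.p14, plus strand, chr18:10454385-10454634), in lower case throughout because none of the 5 motifs above is in it.
APCDD1: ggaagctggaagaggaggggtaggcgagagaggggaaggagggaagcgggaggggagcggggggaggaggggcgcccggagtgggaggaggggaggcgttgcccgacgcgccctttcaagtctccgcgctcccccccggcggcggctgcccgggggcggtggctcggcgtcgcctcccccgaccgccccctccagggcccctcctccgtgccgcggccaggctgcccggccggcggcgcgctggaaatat
The window of APCDD1 does hold a CANNTG, but only in the 50 bases after the start, which are not printed.

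DKK2, a secreted ligand of LRP5 and LRP6 that mostly acts as an antagonist, was at 18.2, 19.8 and 19.5 FPKM under Luciferase sgRNA, 24.5, 25.8 and 25.4 FPKM under ETV1 sgRNA and 25.7, 23.5 and 24.4 FPKM under HAND1 sgRNA. Both sgRNA groups lay above the Luciferase sgRNA libraries and overlapped with each other. The difference from Luciferase sgRNA was 0.38 under ETV1 sgRNA (SE 0.0577, 95% interval 0.25 to 0.51, limma with Benjamini-Hochberg adjusted p = 0.0324) and 0.34 under HAND1 sgRNA (95% interval 0.21 to 0.47, adjusted p = 0.00563). Against each other the groups differed by −0.04 (95% interval −0.17 to 0.09, adjusted p = 0.828). The 2 differences share their control libraries.

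The call of DKK2 under ETV1 sgRNA held in 8 of 19 alternatives, its call with HAND1 sgRNA in all 19. The former was lost without Luciferase sgRNA replicate 1 or 2 (adjusted p = 0.155 and 0.104), ETV1 sgRNA replicate 1, 2 or 3 (0.109, 0.192 and 0.166) and HAND1 sgRNA replicate 1, 2 or 3 (0.0560, 0.0571 and 0.0795), and kept without Luciferase sgRNA replicate 3. The blood markers PTPRC, CD3E and LYZ summed to 0.493 to 1.27 FPKM under ETV1 sgRNA and 0.240 to 0.557 FPKM under Luciferase sgRNA, ranges that overlap, and 3 of 3 had a mean under 1 FPKM. Their part in the difference of DKK2 was not tested.

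**Figure D3:**
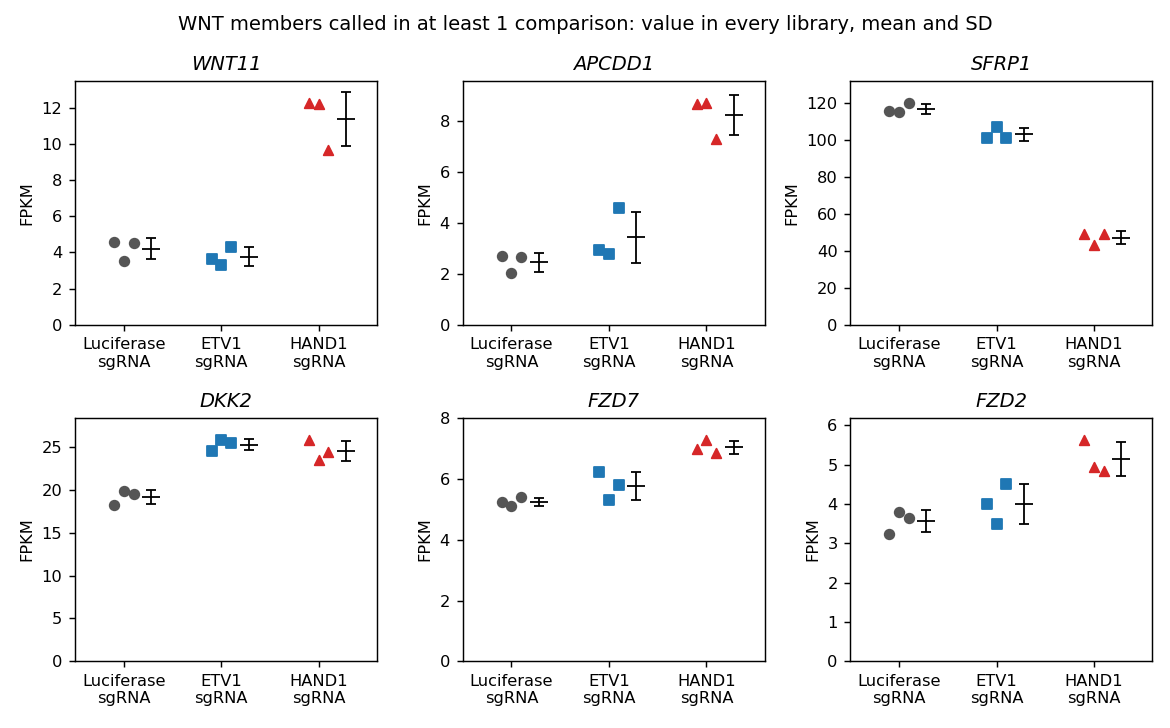
FPKM of the 6 members called in at least 1 comparison in each library (circles for Luciferase, squares for ETV1 and triangles for HAND1 sgRNA), with the group mean and SD beside the points and every axis starting at 0. WNT11, APCDD1, FZD7 and FZD2 are highest and SFRP1 is lowest under HAND1 sgRNA, while DKK2 is higher in both other groups than in the Luciferase sgRNA libraries.

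KREMEN1, a DKK receptor, was the fourth tested antagonist, at 2.35 ± 0.226 FPKM under Luciferase sgRNA, 1.74 ± 0.260 under ETV1 sgRNA and 1.74 ± 0.270 under HAND1 sgRNA. All 6 libraries with ETV1 or HAND1 sgRNA lay below the Luciferase sgRNA libraries, and neither difference was called (−0.29 in both, limma with Benjamini-Hochberg adjusted p = 0.562 and 0.202). The 8 untested antagonists were SFRP2, SFRP4, SFRP5, FRZB, DKK1, DKK3, WIF1 and NOTUM. SFRP4, a relative of SFRP1, was at 0.135, 0.116 and 0.254 FPKM under Luciferase sgRNA, 0.330, 0.160 and 0.397 FPKM under ETV1 sgRNA and 0.900, 1.35 and 0.754 FPKM under HAND1 sgRNA. It thus lay the other way from SFRP1, at a far lower level per length. Without the filter on low values limma called it higher under HAND1 sgRNA (0.77, Benjamini-Hochberg adjusted p = 0.00959, and 0.62 against ETV1 sgRNA, adjusted p = 0.0324). NOTUM, an enzyme that removes the lipid from WNT proteins, was at 0.886 to 1.07 FPKM under Luciferase sgRNA and 0.296 to 0.804 FPKM under ETV1 sgRNA, without overlap, and at 0.489 to 1.20 FPKM under HAND1 sgRNA. WIF1 was at 0.425 to 1.18 FPKM, and the other 5 had means under 0.2 FPKM.

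Summed over the 9 secreted antagonists (SFRP, FRZB, DKK and WIF1 members), the level was 137 ± 2.98 FPKM (SD, n = 3) under Luciferase sgRNA, 129 ± 3.99 under ETV1 sgRNA and 73.6 ± 4.53 under HAND1 sgRNA, and SFRP1 took 85.4%, 79.7% and 63.9% of it. DKK4, a secreted LRP6 antagonist outside the 53 genes, was added to the sum after its values were seen. It was at 92.5, 95.6 and 89.99 FPKM under Luciferase sgRNA, 121, 102 and 116 FPKM under ETV1 sgRNA and 154, 157 and 172 FPKM under HAND1 sgRNA, and rose under HAND1 sgRNA (0.79, SE 0.0706, limma with Benjamini-Hochberg adjusted p = 1.18e-04). With DKK4 counted, the sums were 229 ± 2.11, 242 ± 5.69 and 234 ± 11.4 FPKM. Within this total SFRP1 took 50.9%, 42.6% and 20.1% of it, and DKK4 40.4%, 46.5% and 68.6%. Other secreted genes outside the 53 were not added, so these totals depend on the genes counted. Among them were SERPINF1 (means of 16.0, 15.8 and 21.5 FPKM with Luciferase, ETV1 and HAND1 sgRNA) and SOSTDC1 (4.26, 4.37 and 3.99 FPKM). SOSTDC1 was named after its values were seen. The sums and shares above were not tested.

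**Figure D4:**
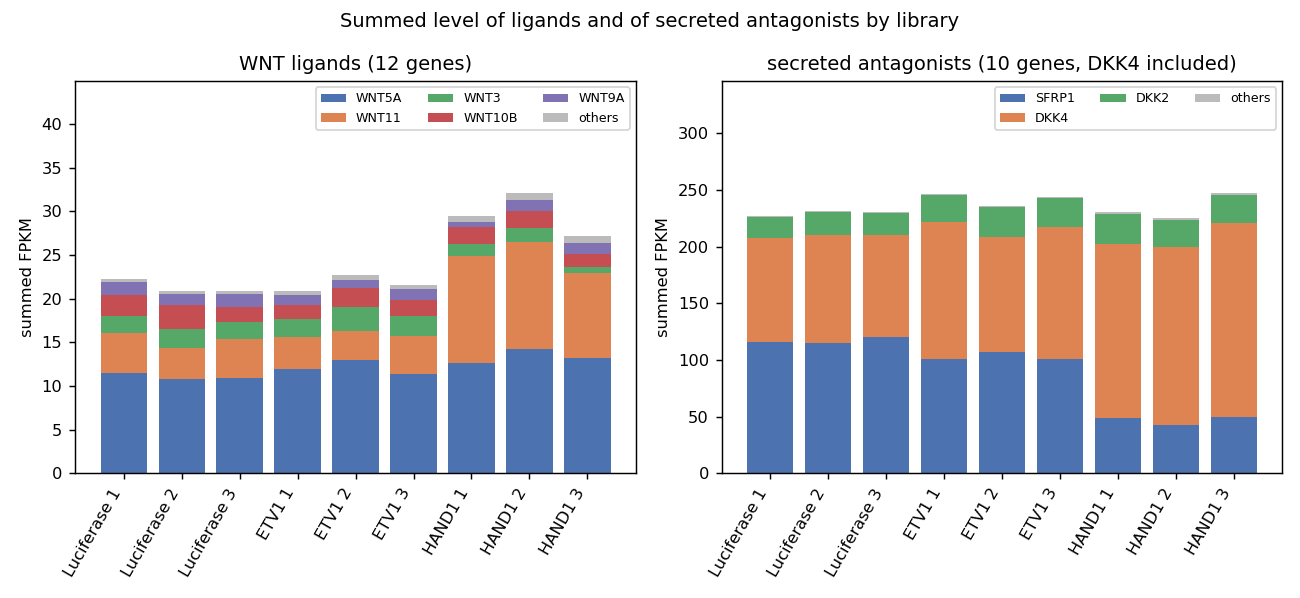
Summed FPKM of the 12 ligands (left) and of 10 secreted antagonists with DKK4 included (right) in each library, as stacked bars by gene. On the left the WNT11 segment is larger in the HAND1 sgRNA libraries on a WNT5A segment of similar height, and on the right the group means of the totals lie between 229 and 242 FPKM while the SFRP1 segment is smaller and the DKK4 segment larger under HAND1 sgRNA.

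In the R-spondin axis, 2 of 5 members were tested and neither was called. LGR4, an R-spondin receptor, was at 8.37 ± 0.243, 8.63 ± 0.414 and 8.33 ± 0.403 FPKM with Luciferase, ETV1 and HAND1 sgRNA, and the interval of its difference for HAND1 sgRNA against Luciferase sgRNA was −0.16 to 0.14. ZNRF3, a ligase that removes Frizzled proteins, was at 4.72, 4.32 and 4.30 FPKM. LGR5, a stem cell R-spondin receptor, was at 0.722 to 1.14 FPKM under Luciferase sgRNA and 0.257 to 0.551 FPKM under ETV1 sgRNA, without overlap. It was below the filter, so this difference was not tested. An antisense transcript shares 208 exon bases with LGR5 in the reference annotation, so the value of LGR5 is uncertain to that extent. RNF43 was at 0.208 to 0.972 FPKM, and it shares exon bases with SUPT4H1, at 63.6 FPKM, so its value is uncertain. PORCN, the acyltransferase that WNT proteins need for secretion, was at 6.55, 5.75 and 5.88 FPKM and was not called.

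None of the 4 TCF/LEF factors was called in limma, although at an unadjusted p under 0.05 there were 2 for ETV1 sgRNA against Luciferase sgRNA (LEF1 and TCF7L2) and 1 for HAND1 sgRNA against ETV1 sgRNA (TCF7L2). At that threshold stood 7 and 12 of the 34 tested members, and 8.2% and 15.4% of all genes tested, in the same comparisons. LEF1 was at 9.57, 10.7 and 9.10 FPKM under Luciferase sgRNA, 11.8, 11.99 and 14.05 FPKM under ETV1 sgRNA and 10.4, 11.4 and 11.8 FPKM under HAND1 sgRNA. The ETV1 sgRNA libraries lay above the Luciferase sgRNA libraries, with a difference of 0.34 (95% interval 0.14 to 0.53, Benjamini-Hochberg adjusted p = 0.271). TCF7L2 likewise had its ETV1 sgRNA libraries above the Luciferase sgRNA libraries (8.23 ± 1.19 and 10.3 ± 0.548 FPKM, 0.31, adjusted p = 0.425). Transcripts on the other strand share 279 exon bases with LEF1 (LEF1-AS1, at 0.661 FPKM) and 300 with TCF7L2 in the reference annotation. The values of LEF1 and TCF7L2 are uncertain to that extent. TCF7L1 (13.7 to 16.0 FPKM) and TCF7 (1.89 to 2.32 FPKM, group means) were not called, and TCF7 shares exon bases on the other strand with SKP1, at 177 FPKM, so its value is uncertain.

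The 4 genes grouped as intracellular feedback were not called either. Some of them are read as an output of the beta-catenin route in many tissues. AXIN2, the most widely used of them, was at 2.22, 2.40 and 2.71 FPKM under Luciferase sgRNA, 3.01, 2.68 and 2.92 FPKM under ETV1 sgRNA and 2.25, 2.13 and 2.54 FPKM under HAND1 sgRNA. Another gene on the same strand shares 1316 exon bases with AXIN2 in the reference annotation, so the value of AXIN2 is uncertain to that extent. The Luciferase and HAND1 sgRNA libraries overlapped, and their difference was −0.06 (95% interval −0.28 to 0.16, limma with Benjamini-Hochberg adjusted p = 0.800), an interval that leaves room for modest changes in either direction. For AXIN2 the HAND1 sgRNA libraries all lay below the ETV1 sgRNA libraries. That difference, −0.23 (95% interval −0.45 to −0.005), was not called (limma with Benjamini-Hochberg adjusted p = 0.310). NKD1, a Dishevelled-binding inhibitor, was at 2.13 ± 0.148 FPKM under Luciferase sgRNA and 1.47 ± 0.213 FPKM under HAND1 sgRNA, without overlap and not called (−0.34, adjusted p = 0.124). NKD2 (13.5 to 15.1 FPKM) and AXIN1 (14.1 to 14.4 FPKM, group means), a scaffold of the beta-catenin destruction complex, were not called.

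Around the members, 4 lists of further WNT genes were read, also chosen with earlier results of these data known, so their shares are description only. With ETV1 sgRNA limma called 0 of 18, 42, 26 and 24 tested genes in the lists of other extracellular and surface genes, intracellular beta-catenin pathway genes, planar polarity and related genes, and known beta-catenin targets, with 4, 5, 2 and 6 at an unadjusted p under 0.05, a threshold that 8.2% of all genes tested passed. The list of extracellular and surface genes had, for HAND1 sgRNA, 4 of 18 higher and 1 lower against Luciferase sgRNA (27.8% called, median 0.16, beside 6.6% and −0.01 over all genes tested). Besides DKK4 these were RSPO2, an R-spondin (0.945 to 2.38 FPKM under Luciferase sgRNA and 3.87 to 4.22 FPKM under HAND1 sgRNA, difference 1.05), SERPINF1, a secreted serpin that binds LRP6 (16.0 to 21.5 FPKM, 0.41), and WLS, the carrier that takes WNT proteins to the surface (72.9 to 89.8 FPKM, 0.30). In limma with Benjamini-Hochberg adjustment their adjusted p was 0.00791, 0.0102 and 0.0122, and that of WLS was 0.0528 without HAND1 sgRNA replicate 2. The gene that fell, TSPAN12, a co-receptor of FZD4, was named after its value was seen (4.89 to 3.05 FPKM, −0.54, adjusted p = 0.0336). Its call was lost in 7 of 18 alternatives, among them those without Luciferase sgRNA replicate 2 or 3 (0.106 and 0.0815), ETV1 sgRNA replicate 1 (0.0512) and HAND1 sgRNA replicate 1, 2 or 3 (0.120, 0.0514 and 0.0875).

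Against ETV1 sgRNA, the same list had 4 of 18 higher and 1 lower under HAND1 sgRNA (27.8% called, beside 4.05% of all genes). GPC3, a glypican that binds WNT proteins, was at 96.1 ± 2.50 FPKM under HAND1 sgRNA and 67.6 ± 3.56 FPKM under ETV1 sgRNA (0.50, limma with Benjamini-Hochberg adjusted p = 5.42e-04). SULF1, a sulfatase of heparan sulfate, was at 10.9 ± 0.900 and 16.3 ± 1.04 FPKM (−0.54, adjusted p = 0.00342). Under Luciferase sgRNA GPC3 was at 83.7 ± 2.96 FPKM and SULF1 at 13.1 ± 0.875 FPKM, each between its ETV1 and HAND1 sgRNA means. Against Luciferase sgRNA neither gene was called under HAND1 sgRNA (adjusted p = 0.0604 and 0.102) or under ETV1 sgRNA (0.0810 and 0.303). DKK4 (0.51) and SERPINF1 (0.43, adjusted p = 0.0526 without HAND1 sgRNA replicate 1) were also higher than under ETV1 sgRNA, as was WLS (0.26, adjusted p = 0.0368). The call of WLS held in 10 of 19 alternatives, and was lost without Luciferase sgRNA replicate 2 (0.0638), ETV1 sgRNA replicate 1, 2 or 3 (0.0699, 0.133 and 0.0735) or HAND1 sgRNA replicate 1, 2 or 3 (0.109, 0.126 and 0.103).

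Of 42 intracellular beta-catenin pathway genes, 2 rose and 2 fell under HAND1 sgRNA against Luciferase sgRNA (9.52% called, median −0.006, beside 6.6% and −0.014 over all genes). DACT1, a Dishevelled-binding protein that dampens or redirects WNT signalling, was at 45.2, 42.3 and 42.2 FPKM under Luciferase sgRNA, 49.3, 52.1 and 52.1 FPKM under ETV1 sgRNA and 76.5, 79.1 and 82.4 FPKM under HAND1 sgRNA. The 3 groups did not overlap, and DACT1 rose by 0.86 over Luciferase sgRNA (SE 0.0526, limma with Benjamini-Hochberg adjusted p = 1.09e-05) and by 0.62 over ETV1 sgRNA (adjusted p = 1.12e-04). DAB2, an adaptor that stabilises AXIN1, rose from 10.7 to 14.9 FPKM (0.44, adjusted p = 0.00463) and was higher than under ETV1 sgRNA as well (0.40, adjusted p = 0.0118), a call lost without ETV1 sgRNA replicate 1 (0.0546) or HAND1 sgRNA replicate 1 or 3 (0.0529 and 0.0512). CSNK1A1, a kinase that primes beta-catenin for breakdown (150 to 131 FPKM, −0.19), and FBXW11, part of a ligase that marks it (27.9 to 22.5 FPKM, −0.30), were lower, and each kept its call in 7 of 19 alternatives. FBXW11 lost it without 8 of the 9 libraries in turn (adjusted p from 0.0575 to 0.138; 0.0848 without Luciferase sgRNA replicate 3), all but Luciferase sgRNA replicate 2. CSNK1A1 lost it without 7 of the 9 (0.0532 to 0.127), all but Luciferase sgRNA replicate 3 and ETV1 sgRNA replicate 3, and with quantile normalization (0.397). CTNNB1, which encodes beta-catenin and was named after its values were seen, was at 169 ± 0.786 FPKM under Luciferase sgRNA and 176 ± 5.35 FPKM under HAND1 sgRNA (0.06, adjusted p = 0.574).

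Planar polarity and other beta-catenin-independent genes had 1 of 26 called against Luciferase sgRNA (3.85%, median 0.04, beside 6.6% and −0.01 over all genes), PRICKLE1, a core polarity protein (14.5 to 11.2 FPKM, −0.34, limma with Benjamini-Hochberg adjusted p = 0.0430). That call was kept in 7 of 19 alternatives and lost without 7 of the 9 libraries in turn, all but Luciferase sgRNA replicate 2 and ETV1 sgRNA replicate 2 (adjusted p from 0.0561 to 0.142; 0.0976 without Luciferase sgRNA replicate 3). Against ETV1 sgRNA 1 of 26 was called too (3.85%, beside 4.05% of all genes). It was MAPK9, a JNK kinase (24.0 to 19.2 FPKM, −0.31, adjusted p = 0.0366), kept in 9 of 19 and lost without 6 of the 9 libraries, all but Luciferase sgRNA replicates 2 and 3 and HAND1 sgRNA replicate 3 (0.0503 to 0.133).

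Of 24 genes known as beta-catenin targets in various tissues, 6 were called under HAND1 sgRNA against Luciferase sgRNA (25.0%, beside 6.6% of all genes), 3 higher and 3 lower, with a median of 0.06 (−0.01 over all genes). TNFRSF19, a TNF receptor family member, rose from 17.7 to 22.5 FPKM (0.33, limma with Benjamini-Hochberg adjusted p = 0.00935), and its call held in 19 of 19 alternatives. FST, the activin antagonist follistatin, was at 0.410 to 0.839 FPKM under Luciferase sgRNA, 1.07 to 1.47 FPKM under ETV1 sgRNA and 1.21 to 2.42 FPKM under HAND1 sgRNA. It passed the filter only through the groups where it was high, so its call is no support for a rise. With FST set aside 2 were higher and 3 lower, while the 25.0% and the median of 0.06 still count it.

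None of the other calls among the targets held in every alternative, and those of TIAM1 and BAMBI held in 13 of 19 and 12 of 18. TIAM1, a RAC activator (19.8 to 16.0 FPKM, −0.29, limma with Benjamini-Hochberg adjusted p = 0.0227), was not called without Luciferase sgRNA replicate 1 or 2 (0.0735 and 0.0654) or HAND1 sgRNA replicate 1 or 2 (0.0774 and 0.0861). BAMBI, a BMP pseudoreceptor (2.93 to 1.56 FPKM, −0.62, adjusted p = 0.0275), was not called without Luciferase sgRNA replicate 1 or 2 (0.0913 and 0.0645) or HAND1 sgRNA replicate 1 or 3 (0.0978 and 0.106). CD44, a hyaluronan receptor, was the third that was higher (0.30) and LBH the third that was lower (−0.22), both named after their values were seen. CD44 lost its call in 5 of 19 alternatives, among them those without Luciferase sgRNA replicate 2 or 3 (0.0875 and 0.0698) and HAND1 sgRNA replicate 1 or 2 (0.101 and 0.0729). LBH, at an adjusted p of 0.0495, kept its call in 3 of 19 and lost it without each of the 9 libraries (0.0575 to 0.157; 0.0651 without Luciferase sgRNA replicate 3).

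Against ETV1 sgRNA, 3 of 24 targets were called lower under HAND1 sgRNA (12.5%, beside 4.05% of all genes called and 2.04% called lower), and 21 were not called. They were LBH (−0.26), EPHB3, an ephrin receptor (−0.21), and TIAM1 (−0.27), and their calls held in 10, 7 and 7 of 19 alternatives. EPHB3 had means of 55.9 FPKM under Luciferase sgRNA, 67.7 FPKM under ETV1 sgRNA and 58.4 FPKM under HAND1 sgRNA. Its HAND1 sgRNA mean was thus not below its Luciferase sgRNA mean. Against Luciferase sgRNA, EPHB3 was not called under HAND1 sgRNA (0.06, limma with Benjamini-Hochberg adjusted p = 0.53) or under ETV1 sgRNA (0.27, adjusted p = 0.081). LBH was not called without 7 of the 9 libraries in turn, all but Luciferase sgRNA replicates 1 and 3 (limma with Benjamini-Hochberg adjusted p from 0.0501 to 0.133). EPHB3 was not called without 8 of the 9, all but Luciferase sgRNA replicate 3 (0.0551 to 0.140), and TIAM1 without 7 of the 9, all but Luciferase sgRNA replicate 3 and HAND1 sgRNA replicate 3 (0.0579 to 0.154).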

How the data were processed

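PolyA RNA of GIST-T1 was sequenced in 9 libraries, made with an RNeasy Plus and a NEBNext Ultra II non-stranded kit for a NovaSeq6000, per the labels' protocols. STAR, Cufflinks and hg19 are named per the submitters' processing notes. Their versions, the annotation, filters and scaling between libraries were not given in the sources used here. FPKM were deposited by the authors, 1 per gene and library, so no count model was used, absolute depth is unknown, and genes that overlap or are antisense cannot be separated. Values below 1e-06 were read as 0.

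The 11348 genes whose mean over the 9 libraries reached 1 FPKM were fitted as log2(FPKM + 1) in limma 3.58.1 (R 4.3.3). The model held the group alone, used all 9 libraries and had an intensity trend, with 6 residual and 4.15 prior degrees of freedom. Two-sided p-values were adjusted by Benjamini-Hochberg across these genes, and a gene was called at an adjusted p under 0.05. The fit was run on data simulated with independent, normal scatter and known differences. Such a run cannot show how the fit behaves on real FPKM or on libraries whose scatter is only technical. The members, the 4 pathway lists and the markers were chosen with earlier results of these data known; 1 marker is not reported here. Named in full are members called in at least 1 comparison, and up to 4 called genes of each list by adjusted p. Other list genes are said to be outside this rule.

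Alternatives were pseudocounts of 0.1 and 5 FPKM, filters of 0 and 5 FPKM, quantile normalization, centring on the median of genes from 10 FPKM up, library weights, a fit with no intensity trend, a fit of the 2 compared groups alone, a block for the replicate number, and each library left out. They were applied to the called list genes after the data were seen. Relative depth came from the ratio of low FPKM values between libraries. Promoter windows came from RefSeq (GRCh38.p14), and exon overlaps from a reference annotation of another build than hg19, used for names only.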

Additional observations from a re-analysis of the deposited data

How the results depend on the processing

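Members called under HAND1 sgRNA against Luciferase sgRNA were 6, and 10 with library weights, which added WNT3 (adjusted p = 0.0444), WNT5A (0.0235), FZD10 (0.0334) and ROR2 (0.0378), while 11.6% of all genes were then called. With libraries left out the count was 4 to 6. It was 4 without Luciferase sgRNA replicate 2 or HAND1 sgRNA replicate 1, 2 or 3, and 5 without Luciferase sgRNA replicate 1, where ROR2 was among them (adjusted p = 0.0469). With ETV1 sgRNA the count was 1, and 0 with no intensity trend (DKK2 adjusted p = 0.0797) or with only the 2 groups compared (0.121), and 0 to 1 with libraries left out. For HAND1 sgRNA against ETV1 sgRNA it was 3 with each library left out, 2 with a filter of 5 FPKM and 4 with no filter.

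With a replicate block limma called 0 members under ETV1 sgRNA (DKK2 adjusted p = 0.140), 6 under HAND1 sgRNA against Luciferase sgRNA, 5 of them as without it (FZD2 lost at 0.0673, FZD10 gained at 0.0421), and 3 against ETV1 sgRNA. The labels repeat the numbers 1 to 3 but name no shared source, and libraries of the same number did not deviate together (correlations −0.146 to 0.138, beside −0.126 to 0.196 for other pairs), with 2 of 9 closest to their own number.

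No call reversed in direction in the alternatives run. A pseudocount of 5 FPKM brought the differences of FZD2 and FZD7 from Luciferase sgRNA to 0.24 and 0.23, and one of 0.1 FPKM those of WNT11 and APCDD1 to 1.41 and 1.71. Depth in reads is unknown, and members under 1 FPKM were left out of the main test.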
